A study of Mus musculus with 15 samples.

Results

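Epithelium of the mouse parotid gland (PG) at embryonic day 12 was compared with epithelium of the submandibular gland (SMG) at embryonic day 11.5, across every gene of the count table except the spike-in controls. The libraries were chosen by their titles: 3 of PG epithelium and 4 of SMG epithelium, 7 of the 15 bulk RNA libraries in the series, with 18940 genes tested of 48709. The other libraries, 4 of SMG mesenchyme and 4 of PG mesenchyme from the same stages, entered the same fit and give the level of each gene in the tissue around the bud. All embryos were of the ICR strain, an outbred mouse stock, and the labels name no mutation or treatment in any group. Gland and stage were never varied separately, so that each difference belongs to the pair of gland and day and cannot be divided between them. The labels describe independent biological replicates, but how the layers were parted and the number of glands or embryos behind a library are not stated in the labels.

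Salivary glands begin as a thickening of the oral epithelium that pushes into condensing mesenchyme derived from the neural crest and then branches. The SMG bud forms in the floor of the mouth beside the tongue and the PG bud in the lining of the cheek. Fibroblast growth factors from the mesenchyme drive the outgrowth through FGFR2 in the epithelium, and WNT, BMP, hedgehog, EDA and neuregulin signals shape budding and duct formation. Textbooks have placed the parotid epithelium in the oral ectoderm and have discussed an endodermal contribution to the submandibular epithelium, so transcription factors linked to each germ layer were listed among the gene groups.

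A gene was called when edgeR's quasi-likelihood test gave a Benjamini-Hochberg adjusted p under 0.05 over all tested genes. By that rule 2221 genes (11.7%) differed between the epithelia, 1339 of them higher in PG (7.07%) and 882 lower (4.66%). The lower count was 572 without PG epithelium replicate 3. With a fitted change of at least 2-fold as well, 875 genes (4.62%) were higher in PG and 384 (2.03%) lower. Of 14949 protein coding genes tested, 1229 were higher and 806 lower (13.6% in all), and of 1784 long noncoding genes 65 were higher and 35 lower (5.61%). Among the 1339 genes higher in PG epithelium the median absolute change was 1.45 on the log2 scale, and among the 882 lower genes it was 0.85. Levels are given in CPM, counts relative to the library total after scaling between libraries, listed in replicate order. Changes are log2 differences of PG minus SMG with approximate standard errors. Each error is the absolute change divided by the square root of the F statistic of the test. These errors rest on the fit of all 15 libraries, so the spread among mesenchyme libraries enters them as well.

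Total gene counts were 27285248 to 29552734 in SMG epithelium and 24128898 to 26514342 in PG epithelium, and 1 read was worth a median of 0.0369 CPM. The first principal component of the 7 epithelial libraries, with 44.9% of the variance, placed the SMG libraries at -48.2 to -35.2 and the PG libraries at 51.3 to 71.4. The second, with 19% of the variance, set the PG libraries apart from each other, at 53.8, -65.7 and 25.4 for replicates 1, 2 and 3, while the SMG libraries lay between -9.8 and 2.9. Summed over 36 epithelial identity genes, SMG epithelium held 8104 to 9156 CPM and PG epithelium 5650 to 8866 CPM. Summed over 36 mesenchymal identity genes, the level was 511 to 899 CPM in SMG epithelium and 599, 1192 and 736 CPM in PG epithelium, against 10440 to 19130 CPM in the mesenchyme libraries. PG epithelium replicate 2 also held the highest sums for endothelial, muscle, neuronal and macrophage markers, and replicate 1 the highest for erythroid markers (2466 CPM against 203 to 866 CPM in the other 6 epithelial libraries). As a percent of the mean in the mesenchyme of the same gland, the mesenchymal identity sum was 4.46 to 7.84% in SMG epithelium. In PG epithelium it was 3.46, 6.88 and 4.25%. In bulk samples, fewer cells of a type and less RNA per cell cannot be told apart.

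**Figure D1:**
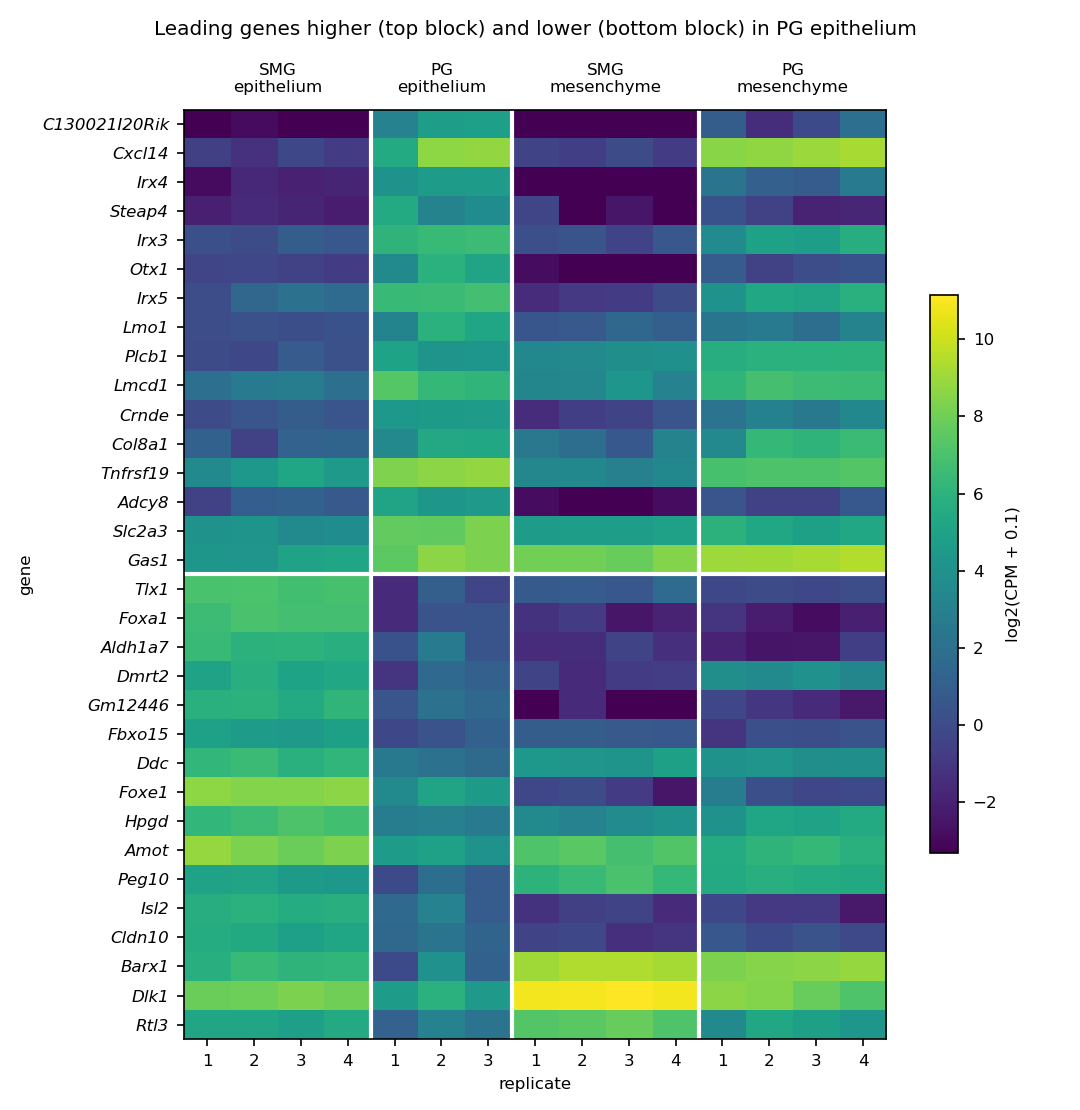
Heat map of log2(CPM + 0.1) for the genes with the largest differences between PG and SMG epithelium in all 15 libraries, with genes in rows, libraries in columns and the colour bar giving the log2 value. Irx3, Irx4, Irx5 and Otx1 were low in all 4 SMG epithelial libraries and high in all 3 PG epithelial libraries, and Tlx1, Foxa1 and Foxe1 showed the opposite order.

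Iroquois homeobox genes were among those with the largest changes toward PG epithelium. They encode transcription factors that pattern many embryonic tissues and lie in 2 clusters of 3 genes. In the chromosome 8 cluster Irx3 (GRCm38, 8:91798525-91802067) measured 1.03, 0.903, 1.83 and 1.44 CPM in SMG epithelium and 68.1, 87.1 and 97.8 CPM in PG epithelium. The groups did not overlap, as the rule that named the leading genes required, and the change was 6.01 ± 0.43 (adjusted p = 1.12e-06). Irx5 (8:92357625-92376286) measured 0.964, 2.64, 4.03 and 3.18 CPM in SMG and 88.5, 94.4 and 112 CPM in PG, a change of 5.19 ± 0.45 (adjusted p = 7.46e-06). Crnde, a long noncoding RNA whose start lies 1505 bases from that of Irx5 on the opposite strand, was higher in the same libraries: 0.928 to 1.83 CPM in SMG against 21.2, 23.4 and 25.6 CPM in PG (4.11 ± 0.39, adjusted p = 6.26e-06). Irx6, the third gene of that cluster, was lower in level and lost its call without single libraries (0.857 to 2.60 against 8.49, 2.56 and 5.42 CPM, 1.65 ± 0.46, adjusted p = 0.0273). Leaving out PG epithelium replicate 1 gave an adjusted p of 0.145 for Irx6.

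In the chromosome 13 cluster Irx4 (13:73260479-73269608) was close to the level of single reads in SMG epithelium, at 0.0357, 0.208, 0.146 and 0.185 CPM, and stood at 17.0, 25.7 and 24.5 CPM in PG epithelium. Its change of 7.24 ± 0.54 (adjusted p = 4.8e-06) kept an adjusted p of at most 5.23e-05 when any 1 of the 7 libraries was left out. Irx2 measured 3.82 to 8.75 CPM in SMG and 36.4, 41.2 and 34.0 CPM in PG (2.58 ± 0.69, adjusted p = 0.0261). Its groups did not overlap, yet the call was lost without any one of 6 of the 7 libraries, with an adjusted p of up to 0.0745 without SMG epithelium replicate 1. Irx1 was not called (1.34 ± 0.76, adjusted p = 0.307). Per kilobase of exon, Irx2 had the highest level of the family in SMG epithelium (1.89 ± 0.616 CPM per kb, SD, n = 4), whereas in PG epithelium Irx5 (31.5 ± 3.97 CPM per kb, n = 3) and Irx3 (30.5 ± 5.44 CPM per kb) came first with ranges that overlapped. Irx3 overlaps a transcript on the opposite strand, and reads of such pairs cannot be told apart with this cDNA kit.

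Further genes of transcriptional regulators were higher in PG epithelium. Otx1, a homeobox gene of forebrain and sense organ development, measured 0.714, 0.729, 0.623 and 0.480 CPM in SMG epithelium and 11.4, 60.04 and 35.1 CPM in PG epithelium (5.79 ± 0.50, adjusted p = 3.59e-06). Lmo1, which encodes a LIM-only cofactor, rose from 0.964 to 1.15 CPM to 8.95, 59.2 and 35.6 CPM (5.02 ± 0.51, adjusted p = 1.57e-05). For both genes PG replicate 1 was the lowest of the PG libraries and still far above every SMG library, where the naming rule required no overlap. Lmx1b, a LIM homeobox gene of dorsal limb and head development, had 5 reads in all 4 SMG libraries together and stood at 1.75, 7.34 and 9.77 CPM in PG (6.98 ± 0.81, adjusted p = 4.07e-05). C130021I20Rik, an RNA gene that by GENCODE starts 682 bases away on the opposite strand, had 1 read in SMG epithelium and 8.37, 27.9 and 28.4 CPM in PG, a CPM ratio of 2430 with a 95% counting interval of 437 to 96100. Sox14, named after its values were seen, also had 1 read in SMG epithelium and 2.499, 4.94 and 4.54 CPM in PG, a ratio of 448 (80.4 to 17700).

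The windows from 250 bases before to 50 after the starts of Lmx1b and C130021I20Rik are shown because both genes moved together from near 0, and because the windows overlap. They are from RefSeq (GRCm38.p6), for Lmx1b chr2:33641049-33641348 on the minus strand and for C130021I20Rik chr2:33640943-33641242 on the plus strand. The GENCODE start of Lmx1b, 33640511, lies outside its window, so the distance given above and the windows use different starts of Lmx1b. Capitals mark the 194 bases that the windows share, written on opposite strands.
Lmx1b: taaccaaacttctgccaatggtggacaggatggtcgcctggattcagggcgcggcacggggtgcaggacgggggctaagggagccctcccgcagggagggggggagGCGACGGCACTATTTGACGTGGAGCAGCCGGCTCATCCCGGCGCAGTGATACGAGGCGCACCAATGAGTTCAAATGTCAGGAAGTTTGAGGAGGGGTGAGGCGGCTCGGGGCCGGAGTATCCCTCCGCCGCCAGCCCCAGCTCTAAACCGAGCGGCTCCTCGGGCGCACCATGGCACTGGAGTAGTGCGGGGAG
C130021I20Rik: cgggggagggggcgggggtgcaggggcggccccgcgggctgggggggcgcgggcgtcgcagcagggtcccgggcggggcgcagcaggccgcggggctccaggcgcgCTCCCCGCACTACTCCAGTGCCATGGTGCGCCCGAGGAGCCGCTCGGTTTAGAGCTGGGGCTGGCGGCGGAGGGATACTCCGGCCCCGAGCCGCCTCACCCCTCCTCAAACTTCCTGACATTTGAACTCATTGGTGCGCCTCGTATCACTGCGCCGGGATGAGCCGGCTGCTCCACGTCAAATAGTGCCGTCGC

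The remaining genes with large higher levels were receptors, transporters and secreted factors. Tnfrsf19, a TNF receptor family member also called Troy, stood at 12.1, 21.1, 37.1 and 22.5 CPM in SMG epithelium and 330, 392 and 448 CPM in PG epithelium (4.07 ± 0.27, adjusted p = 7.67e-07). The glucose transporter gene Slc2a3 measured 12.1 to 17.5 CPM in SMG and 202, 192 and 313 CPM in PG (4.01 ± 0.24, adjusted p = 2.55e-07). For both genes the highest SMG library lay far below the lowest PG library, and the rule that named them required groups without overlap. The chemokine gene Cxcl14 stood at 0.312 to 0.769 CPM in SMG and 46.2, 413 and 439 CPM in PG (9.12 ± 0.74, adjusted p = 7.62e-06), and its level in PG mesenchyme, 477 ± 102 CPM (SD, n = 4), was at least as high. Steap4, a metalloreductase gene, was below 0.25 CPM in SMG and at 46.1, 8.78 and 12.8 CPM in PG (7.01 ± 0.97, adjusted p = 0.000292). Lmcd1, encoding a LIM domain protein (4.30 ± 0.37), and the adenylyl cyclase gene Adcy8 (4.06 ± 0.41) completed the set whose PG mesenchyme was lower than the PG epithelium. Plcb1, Col8a1 and the hedgehog co-receptor gene Gas1 (18.3 to 37.8 against 181, 396 and 317 CPM, 3.46 ± 0.30) were called as well, with more RNA in PG mesenchyme than in PG epithelium. Igfbp3, whose product binds insulin-like growth factors and which was among the most counted called genes, stood at 207 to 420 CPM in SMG and 1531, 704 and 992 CPM in PG (1.88 ± 0.26, adjusted p = 0.000321).

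The genes with the largest lower levels in PG epithelium included several transcription factors that the SMG bud expressed strongly. Foxa1, a forkhead pioneer factor of endodermal epithelia, measured 94.6, 126, 111 and 113 CPM in SMG epithelium and 0.250, 1.21 and 1.26 CPM in PG epithelium (12:57540628-57546916). Its change was -6.92 ± 0.43 (adjusted p = 3.37e-07), and the mean level was 123-fold higher in SMG. Tlx1, a homeobox gene known for its part in spleen formation, measured 127, 133, 109 and 120 CPM in SMG and 0.250, 1.94 and 0.725 CPM in PG (19:45150680-45156943), a change of -6.95 ± 0.45 (adjusted p = 5e-07). The antisense gene Tlx1os, named after its values were seen, had no read in PG epithelium and 1.57 to 2.53 CPM in SMG, at least 51.0-fold lower by a floor of 3 counts over the PG group. Its coordinates (19:45154057-45159304) overlap those of Tlx1 on the opposite strand, so reads of Tlx1 may have been counted for Tlx1os. Foxe1, a forkhead gene of thyroid and palate development, measured 413, 352, 354 and 395 CPM in SMG and 11.5, 34.8 and 23.8 CPM in PG (4:46343609-46346412), a change of -4.02 ± 0.64 (adjusted p = 0.0013). Gm12446, an antisense gene that overlaps Foxe1, changed alike (-4.41 ± 0.50, adjusted p = 4.56e-05), and reads of the pair cannot be told apart.

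Foxa1 was thus near 1 CPM or below in every PG library. Its RefSeq window (GRCm38.p6, chr12:57546062-57546361, minus strand) is shown because Foxa1, with Tlx1, had the largest changes toward SMG among the factors described here. The window lies inside the GENCODE coordinates of Foxa1 given above, because the RefSeq start differs from the GENCODE start. Capitals mark the 1 match to the forkhead core TGTTTAC, found here on the reverse strand as GTAAACA. Either strand of that motif occurs in 3.66% of 32544 promoter windows of the same length.
Foxa1: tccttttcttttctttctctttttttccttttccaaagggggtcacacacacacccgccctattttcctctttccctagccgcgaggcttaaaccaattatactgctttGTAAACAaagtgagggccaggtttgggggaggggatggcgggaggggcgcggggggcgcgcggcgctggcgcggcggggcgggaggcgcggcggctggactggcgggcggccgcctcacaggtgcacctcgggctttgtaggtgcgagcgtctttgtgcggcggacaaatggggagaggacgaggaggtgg

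Isl2, a LIM homeobox gene of motor neurons, measured 50.2 to 61.2 CPM in SMG epithelium and 2.92, 8.39 and 1.75 CPM in PG (-3.64 ± 0.48, adjusted p = 0.000162). Dmrt2, a DM-domain factor of somite development, fell from 31.8, 52.6, 32.7 and 40.1 CPM to 0.375, 2.95 and 2.02 CPM (-4.45 ± 0.47, adjusted p = 2.37e-05). These factors were low in SMG mesenchyme too, at 0.461 ± 0.208 and 0.475 ± 0.183 CPM (SD, n = 4). Enzymes formed a further group: the aldehyde dehydrogenase gene Aldh1a7 (55.1 to 84.8 against 1.17, 6.18 and 1.26 CPM, -4.53 ± 0.57), Ddc of aromatic amine synthesis (57.9 to 92.2 against 5.71, 4.12 and 3.13 CPM, -4.11 ± 0.25) and Hpgd, which degrades prostaglandins (75.4 to 137 against 6.87, 7.73 and 6.22 CPM, -3.90 ± 0.34). Each had an adjusted p of at most 0.000139. None overlapped between groups, which the rule that named them required. Aldh1a7 and its neighbour Aldh1a1 are close paralogs, and reads may have been divided wrongly between the pair. Amot, a junction scaffold gene of the Hippo pathway (234 to 454 against 24.3, 31.4 and 16.9 CPM, -3.76 ± 0.28), Cldn10, which forms ion-selective pores in tight junctions (28.2 to 49.6 against 2.79, 4.62 and 2.40 CPM, -3.59 ± 0.32), and Fbxo15 (-4.27 ± 0.37) were also lower. Barx1, Peg10, Dlk1 and Rtl3 were lower in PG epithelium by -3.47, -3.76, -2.88 and -2.87, and in each case the SMG mesenchyme held more of the RNA than the SMG epithelium. Barx1, a homeobox gene, stood at 54.3, 84.1, 66.4 and 72.0 CPM in SMG and 0.833, 15.7 and 2.14 CPM in PG. Its change was -5.51 without PG replicate 2, and it was not called with the epithelial libraries fitted alone.

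Factors linked to surface and cranial ectoderm and those linked to endoderm were counted as lists. Epithelial counts of called members, here and below, are to be read beside the 7.07% of all tested genes called higher and 4.66% called lower. Of 36 tested ectoderm-associated factors, 16 were higher in PG epithelium and 3 lower, with a median change of 1.62 against 0.0022 over all tested genes. In mesenchyme 21 of the 36 were higher in PG and 3 lower (median 1.67), beside 15.3% and 9.43% of all tested genes. Mesenchymal counts below are to be read beside the same shares. In the epithelium, leaving out PG replicate 2 left 11 higher. Beside the Irx genes, Otx1 and Lmx1b, the higher members included Vgll2, a cofactor gene of facial development (0.0366 to 0.278 against 15.4, 8.28 and 7.98 CPM, 5.91 ± 0.68), and Msx2 (0.0694 to 0.535 against 3.21, 36.6 and 19.5 CPM, 5.91 ± 0.92). Msx1 was called only with PG replicate 2, which held 18.1 CPM against 0.583 and 1.60 CPM in the other PG libraries (adjusted p = 0.014, and 0.104 without it). Foxi2 had no read in SMG epithelium and 0.458 to 0.816 CPM in PG, at least 23.4-fold higher. Tfap2b (45.6 to 61.9 against 127, 179 and 190 CPM) was higher by 1.63 ± 0.40, with an adjusted p of 0.0591 without PG replicate 3. The lower members were Tbx3 (58.7 to 76.4 against 8.99, 28.7 and 23.1 CPM, -1.73 ± 0.35), Eya4 (-1.37 ± 0.31) and Pitx1 (320 to 361 against 178, 227 and 229 CPM, -0.70 ± 0.21), which lost its call without any 1 of the 7 libraries.

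Of 16 tested endoderm-associated factors, 6 were lower in PG epithelium and 1 higher, with a median change of -0.98. In mesenchyme 2 of the 16 were lower in PG and 4 higher, with a median change of 0.13. The lower count in the epithelium was 3 without PG replicate 1, 3 without PG replicate 3 and 7 without PG replicate 2. Beside Foxa1 and Foxe1, Foxa2 had 1 read in PG epithelium and 0.696 to 2.5 CPM in SMG, a ratio of SMG to PG of 135 (24.3 to 5340). Tbx1, a T-box gene of the pharynx, stood at 46.2, 45.9, 42.0 and 45.0 CPM in SMG and 0.458, 14.8 and 0.916 CPM in PG (-3.05 ± 0.83, adjusted p = 0.0309). Replicate 2 was again the high PG library: without it the Tbx1 change was -5.99, and without PG replicate 3 the adjusted p was 0.0798. Nkx2-3, a homeobox gene of gut and oral floor, stood at 50.7 to 65.0 CPM in SMG and 9.203, 11.2 and 8.55 CPM in PG (-2.63 ± 0.65, adjusted p = 0.0174, and 0.0691 without PG replicate 3). Pax9, a paired box gene of tooth and palate development, was lower by -1.13 ± 0.33, and no single library could be left out without losing the call (adjusted p up to 0.134). The member that was higher was Foxp2 (20.9 to 26.3 against 98.5, 65.0 and 64.3 CPM, 1.73 ± 0.17, adjusted p = 1.24e-05). Nkx2-1, Gata4 and Sox17 stayed below 0.4 CPM on average in both epithelia. Of 5 tested Hox genes, which are normally silent in the front of the head, Hoxb1 and Hoxb2, named after their values were seen, were lower in PG, at 0.903 to 2.70 against 0.0777 to 0.229 CPM and at 2.05 to 4.88 against 0.0763 to 0.125 CPM.

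**Figure D2:**
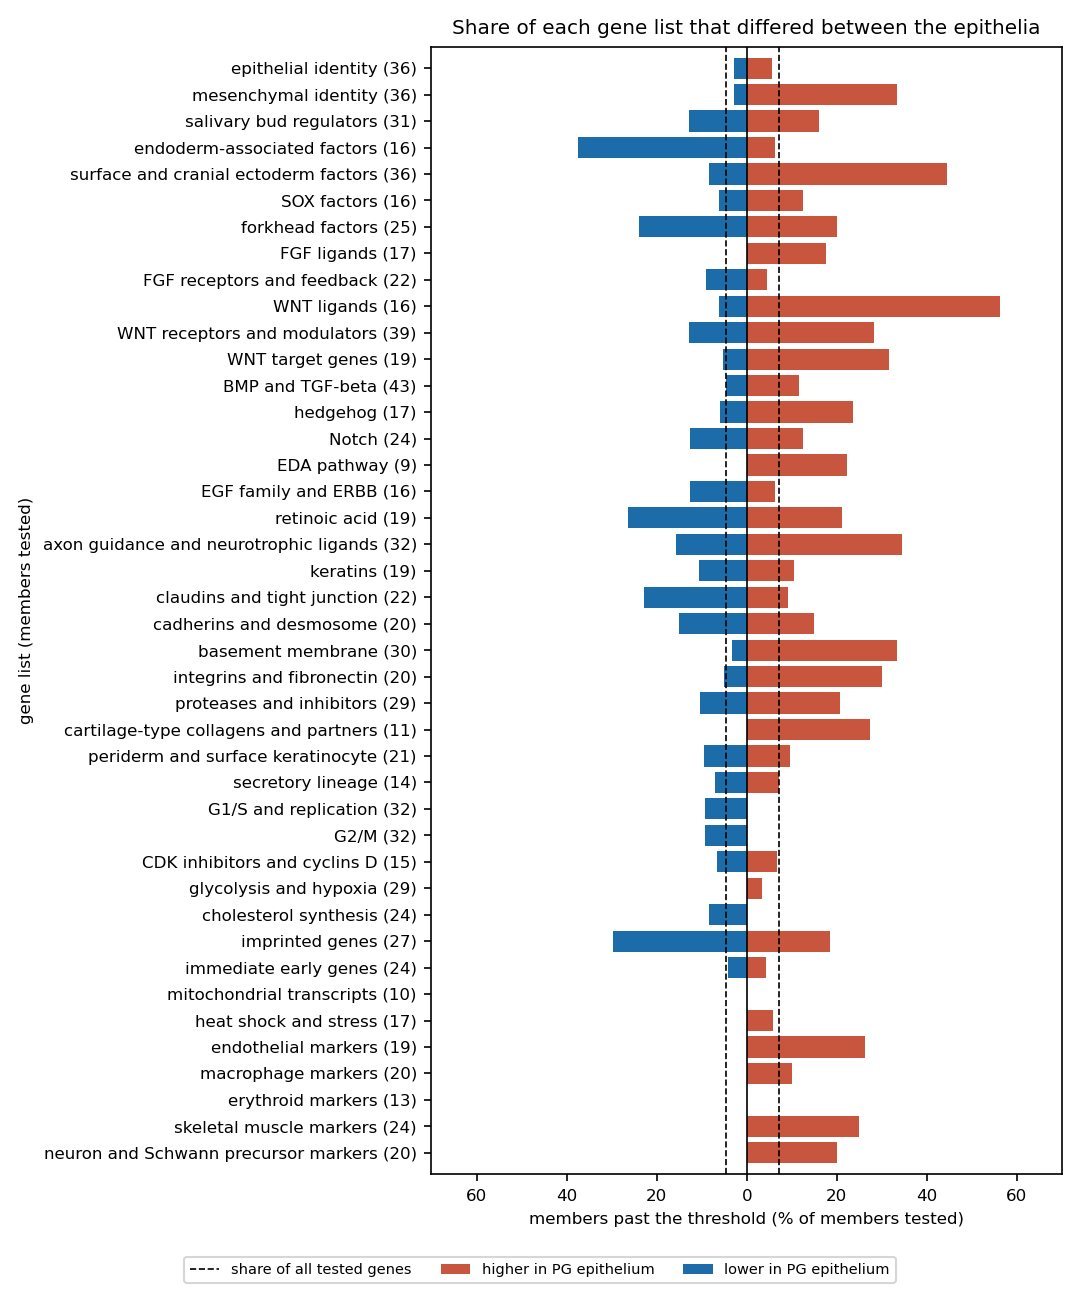
Percent of the tested members of each gene list that were called higher (red, to the right) or lower (blue, to the left) in PG epithelium than in SMG epithelium, for lists with at least 9 tested members. Dashed lines mark the shares over all tested genes, 7.07% higher and 4.66% lower. WNT ligands and surface and cranial ectoderm factors reached the largest shares higher, and endoderm-associated factors the largest share lower.

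Among the signalling lists, WNT ligands had the largest share of members called higher. These secreted, lipid-modified proteins stabilise beta-catenin or signal without it, and Frizzled and LRP proteins receive them. Of 16 tested ligands, 9 were higher in PG epithelium and 1 lower, with a median change of 1.16. In mesenchyme 12 of the 16 were higher in PG and 2 lower, with a median change of 3.63, beside 15.3% and 9.43% of all tested genes. Of 36 epithelial identity genes, 33 were called higher in PG mesenchyme too, with a median change of 3.58. The part of epithelial RNA in the mesenchymal values of the ligands was not tested. The count of ligands higher in PG epithelium was 7 without PG replicate 2 and 7 without PG replicate 3. Wnt3 measured 8.03, 4.17, 9.49 and 9.2 CPM in SMG and 43.4, 88.7 and 99.7 CPM in PG (3.32 ± 0.40, adjusted p = 8.55e-05). Its neighbour Wnt9b, whose start lies 24329 bases away on the opposite strand, measured 12.3, 10.2, 13.1 and 14.3 CPM in SMG and 51.4, 144 and 151 CPM in PG (3.21 ± 0.42, adjusted p = 0.00018). Both were lowest in PG replicate 1, and neither overlapped between the groups. In mesenchyme Wnt3 and Wnt9b changed by 6.59 and 6.61. Wnt3a (0.476 to 1.39 against 2.12, 20.5 and 14.3 CPM), Wnt7a (0.178 to 1.22 against 1.54, 18.9 and 8.59 CPM) and Wnt10b (0.347 to 0.549 against 1.42, 5.32 and 4.20 CPM) changed by 3.65 ± 0.73, 4.08 ± 0.90 and 3.03 ± 0.56. Wnt16, with a mean below 1 CPM, and Wnt5b were called too (3.78 ± 0.81 and 0.76 ± 0.16). Both kept the call with any 1 library left out, as did Wnt3a and Wnt7a, and each of these 4 lost it under 1 or 2 other alternatives. Wnt5a and Wnt7b were called with adjusted p-values of 0.0352 and 0.049, and both lost the call without any one of 6 of the 7 libraries, with values up to 0.19 and 0.168. Wnt9a was lower (-1.30 ± 0.37, adjusted p = 0.0332, and 0.11 without PG replicate 1), and was also not called without SMG replicate 1, SMG replicate 3 or PG replicate 3.

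The most abundant ligands per kilobase of exon were the same 3 in both epithelia. Wnt6, Wnt7b and Wnt4 led in SMG epithelium at 54.5 ± 11.4, 39.4 ± 4.4 and 35.7 ± 3.35 CPM per kb (SD, n = 4), and the ranges of Wnt7b and Wnt4 overlapped. In PG epithelium they stood at 106 ± 31.8, 89.1 ± 38.9 and 39.3 ± 18.4 CPM per kb (n = 3), again with overlapping ranges for neighbours in the order. Wnt9b moved from rank 6 to rank 4 (2.77 ± 0.377 to 25.6 ± 12.3 CPM per kb) and Wnt3 from rank 7 to rank 5 (2.51 ± 0.797 to 25.1 ± 9.71 CPM per kb). Neither Wnt6 (0.97 ± 0.38, adjusted p = 0.128) nor Wnt4 (0.14 ± 0.33, adjusted p = 0.853) passed the test for a change.

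**Figure D3:**
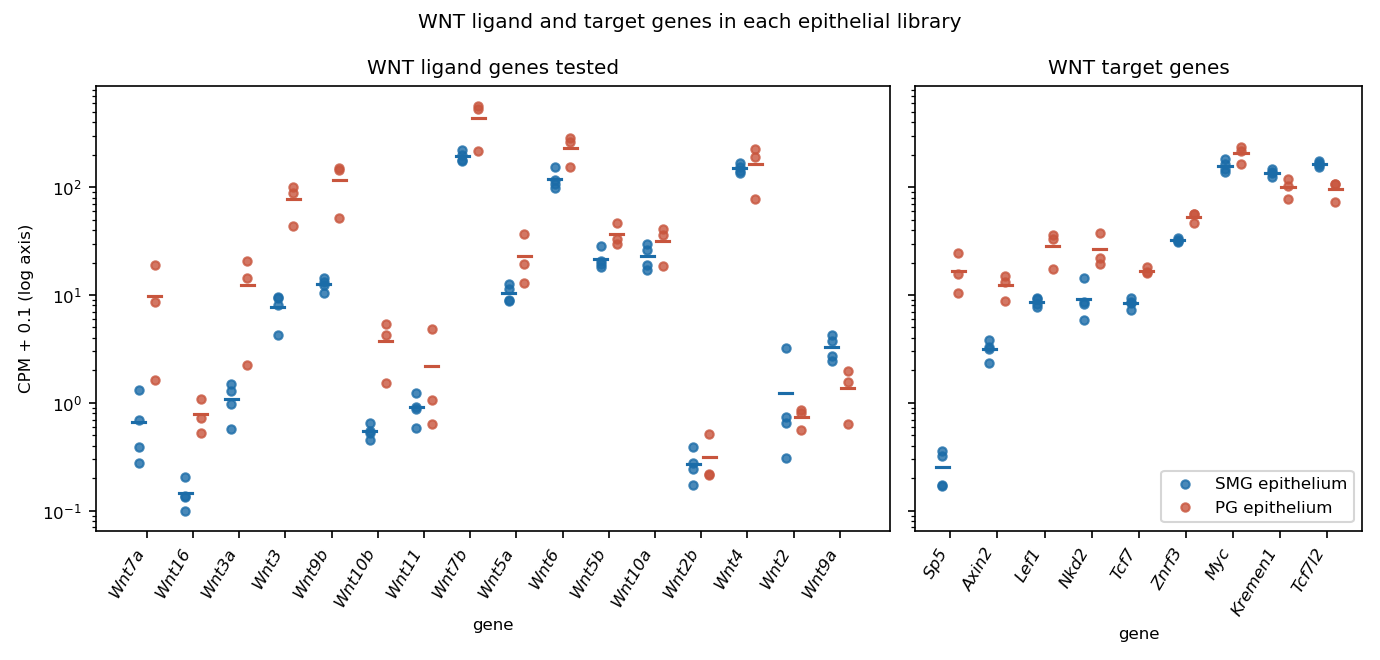
CPM + 0.1 on a log axis for WNT ligands and WNT target genes in the 4 SMG and 3 PG epithelial libraries, with blue points for SMG libraries, red points for PG libraries and bars for group means. Wnt3, Wnt9b, Sp5 and Axin2 were higher in all 3 PG libraries than in any SMG library, while Wnt4 overlapped.

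Of 39 tested receptors and modulators of the WNT pathway, 11 were higher in PG epithelium and 5 lower (3 without PG replicate 1), with a median change of 0.56. Among Frizzled receptors, Fzd1 (28.4 to 43.3 against 111, 154 and 194 CPM, 2.05 ± 0.20), Fzd10 (1.91 ± 0.28) and Fzd9 (1.90 ± 0.30) were higher. Fzd4 was lower (26.0 to 37.2 against 6.46, 7.19 and 4.39 CPM, -2.44 ± 0.27, adjusted p = 4.02e-05). Lgr6, a receptor for R-spondins, rose from 0.678 to 1.59 CPM to 2.67, 13.8 and 9.197 CPM (2.85 ± 0.47). Kremen2, which binds Dickkopf inhibitors, was higher (49.97 to 56.5 against 169, 192 and 231 CPM, 1.89 ± 0.35), while Dkk3 of the Dickkopf family was lower (41.5 to 47.7 against 10.2, 18.3 and 14.6 CPM, -1.62 ± 0.17). Fzd5 and Fzd6 were lower by -1.60 ± 0.42 and -1.11 ± 0.27, with adjusted p-values of 0.0787 and 0.057 without PG replicate 1. In mesenchyme 20 of the 39 genes were higher in PG and 5 lower, with a median change of 0.85.

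Of 19 tested genes that are known to respond to beta-catenin in many tissues, 6 were higher in PG epithelium and 1 lower (2 without SMG replicate 3 or PG replicate 2), with a median change of 0.70. Sp5, a zinc finger gene and a direct target in several systems, measured 0.0714, 0.0694, 0.256 and 0.222 CPM in SMG and 24.4, 10.3 and 15.4 CPM in PG (6.72 ± 0.73, adjusted p = 2.74e-05). The feedback inhibitor gene Axin2 measured 3.07, 3.19, 3.70 and 2.25 CPM in SMG and 8.70, 14.9 and 13.1 CPM in PG (2.00 ± 0.22, adjusted p = 2.37e-05). The other higher members were Lef1 (7.58 to 9.28 against 17.2, 35.7 and 33.1 CPM, 1.75 ± 0.24) and Tcf7 (1.02 ± 0.19), both nuclear partners of beta-catenin, the inhibitor gene Nkd2 (1.53 ± 0.26) and Znrf3, which removes Frizzled receptors (0.72 ± 0.14). Tcf7l2 was lower (154 to 176 against 73.0 to 108 CPM, -0.78 ± 0.20, adjusted p = 0.0177, and 0.0709 without PG replicate 1). Myc did not pass the test (0.39 ± 0.17, adjusted p = 0.175). In each of the 3 PG libraries Sp5 was at least 10.3 CPM, although its order among them differed from that of Wnt3 and Wnt9b. In mesenchyme 11 of the 19 target genes were higher in PG and 2 lower, with a median change of 1.02.

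The Sp5 window (RefSeq, GRCm38.p6, chr2:70474673-70474972, plus strand) is shown because Sp5 had the largest change among the listed targets. Capitals mark its 1 match to CTTTGAT, the core bound by TCF and LEF factors, which occurs on either strand in 3.73% of the 32544 windows. The match is a description of the sequence, and binding was not measured.
Sp5: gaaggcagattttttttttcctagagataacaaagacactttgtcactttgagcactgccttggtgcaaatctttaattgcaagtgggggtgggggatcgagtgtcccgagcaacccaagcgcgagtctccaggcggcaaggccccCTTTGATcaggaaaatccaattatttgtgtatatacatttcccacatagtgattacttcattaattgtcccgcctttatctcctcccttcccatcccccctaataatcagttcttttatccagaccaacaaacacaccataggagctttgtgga

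Among FGF genes the ligand Fgf8 had the largest called change. Fgf8, a ligand of early facial epithelium, measured 0.0714, 0.243, 0.0366 and 0.0739 CPM in SMG epithelium and 7.08, 13.7 and 7.63 CPM in PG epithelium (6.399 ± 0.90, adjusted p = 0.000268). Of 17 tested ligands 3 were higher, and 1 was higher without SMG replicate 1 or 3 or PG replicate 2 or 3. The other calls, Fgf17 and Fgf5, were named after their values were seen and stayed below 1 CPM. They lost the call without single libraries, with adjusted p-values of up to 0.109 without SMG replicate 1 for Fgf17 and 0.122 without PG replicate 2 for Fgf5. Fgf9 and Fgf1 were not called (-0.71 ± 0.27 and 0.38 ± 0.35). Fgfr2, the receptor of the bud, was not called either (485 to 601 against 642, 742 and 882 CPM, 0.45 ± 0.25, adjusted p = 0.285). Of 22 receptors and feedback genes, Flrt3 was higher (0.96 ± 0.20), and Fgfrl1 (45.8 to 49.0 against 21.5, 19.8 and 24 CPM, -1.12 ± 0.10, adjusted p = 2.97e-06) and Spry4 (-0.78 ± 0.21, adjusted p = 0.0224, not called without SMG replicate 2, PG replicate 2 or PG replicate 3) were lower. The lower count was 4 without PG replicate 1. The feedback genes Dusp6, Etv4 and Etv5 were not called.

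Genes of the BMP and TGF-beta pathways were called in both directions. Nog, which encodes the BMP antagonist noggin, measured 6.64, 6.95, 9.52 and 10.7 CPM in SMG and 56.3, 53.2 and 69.3 CPM in PG (2.82 ± 0.32, adjusted p = 4.03e-05). Chrd, which encodes chordin, was lower in level and changed alike (0.513 to 1.22 against 6.54, 4.51 and 6.68 CPM, 2.92 ± 0.29). Among 43 tested genes of the BMP and TGF-beta list, 5 were higher and 2 lower (4 without PG replicate 2), with a median change of 0.01. Bmp2, Inhbb and Gdf10 were the other higher members (2.25 ± 0.35, 2.18 ± 0.40 and 1.95 ± 0.42), all below 7 CPM. Id4, a BMP-responsive inhibitor of bHLH factors, was lower (45.8 to 55.0 against 7.79, 22.5 and 12.7 CPM, -1.82 ± 0.39), as was Tgfb1 (-1.30 ± 0.19). Sostdc1, a further BMP antagonist gene, counted here among the WNT modulators, was lower (-0.79, adjusted p = 0.036) and not called without PG replicate 1 (0.147).

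Hedgehog, EDA, Notch and ERBB genes were counted by pathway, to be read beside the 11.7% of all tested genes that were called. In the hedgehog list of 17 genes, the co-receptor genes Gas1 and Boc (45.3 to 51.2 against 114, 93.3 and 127 CPM, 1.23 ± 0.10, adjusted p = 2.17e-06), the effector gene Gli2 (0.81 ± 0.16) and Disp1 (0.57 ± 0.10) were higher, and Scube2 was lower (-2.503 ± 0.61, with the call lost without PG replicate 1 or 2). Shh itself was near 1 CPM or below in both epithelia, and Ptch1 and Gli1 were not called. Of 9 EDA pathway genes 2 were higher, one of them the receptor gene Tnfrsf19 and the other Nfkbia, which restrains NF-kappa-B (57.0 to 100 against 118, 116 and 149 CPM, 0.77 ± 0.19, adjusted p = 0.0151, and 0.0689 without PG replicate 3). Of 24 Notch genes Heyl, Hey2 and Dll1 were higher, at 3.92 CPM or less, and Notch3 (109 to 140 against 57.3, 78.8 and 74.0 CPM, -0.77 ± 0.14), Dlk1 and Dlk2 were lower. The higher count was 1 without SMG replicate 1, SMG replicate 4 or PG replicate 2 and 5 without PG replicate 1. Erbb4 was the 1 higher gene of 16 in the EGF and ERBB list (1.08 ± 0.29, not called without SMG replicate 1 or PG replicate 1), and Erbb2 and Erbb3, the receptors for neuregulin in the bud, were not called. Areg and Ereg, ERBB ligand genes below 4 CPM, were called lower and lost the call without PG replicate 1 or PG replicate 3 respectively (adjusted p = 0.143 and 0.0972).

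The retinoic acid list was split, with 4 of 19 genes higher in PG epithelium and 5 lower, 2 higher and 3 lower without PG replicate 2, and 3 lower without PG replicate 3. Genes for synthesis differed by member: Rdh10 (6.11 to 13.4 against 48.7, 21.9 and 25.2 CPM, 1.94 ± 0.36) and Aldh1a3 (2.89 to 3.36 against 14.99, 6.22 and 6.75 CPM, 1.54 ± 0.32) were higher, and Aldh1a1 was lower (5.02 to 8.32 against 0.458, 1.05 and 0.992 CPM, -2.96 ± 0.45). Cyp26b1, which degrades retinoic acid, was lower (6.91 to 8.43 against 0.4997, 1.63 and 0.382 CPM, -3.15 ± 0.46, adjusted p = 0.000318). The binding protein gene Crabp2 was lower too (-0.43 ± 0.12, adjusted p = 0.0335, and 0.151 without PG replicate 2). Crabp1 was called higher only with PG replicate 2 (2.04 ± 0.49, adjusted p = 0.0162, and 0.0887 without it). The receptor gene Rarg was not called, and Rarb was lower by -0.72 ± 0.17 with adjusted p-values of 0.0109 with all libraries and 0.0605 without PG replicate 2.

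Epithelial markers and regulators of the salivary bud were counted next. Of 36 tested epithelial identity genes, 2 were higher in PG (the keratins Krt14 and Krt5) and 1 lower (Cldn7), with a median change of -0.30. In 16 of the 36 every PG library lay below every SMG library, and in 2 above. Over all tested genes these shares were 11.6% and 11.4%. Epcam, an epithelial adhesion gene, stood at 540 to 614 CPM in SMG and 546, 442 and 484 CPM in PG, which overlap (-0.23 ± 0.59). Trp63, the master factor of stratified epithelia, overlapped as well (583 to 679 against 497, 754 and 786 CPM, 0.12 ± 0.52). For both genes the standard error, which also takes in the spread of the mesenchyme libraries, leaves room for a change of 2-fold. Of 31 tested salivary bud regulators, 5 were higher (Fgf8, Krt5, Tfap2b and Sox10 among them) and 4 lower (Foxa1, Kit, Pax9 and Pitx1, a count of 2 without any one of the libraries other than PG replicate 1), with a median change of 0.07. Sox9, a factor of the distal bud, was not called (536 to 580 against 761, 413 and 589 CPM, 0.07 ± 0.32). Sox10 was higher (26.9 to 40.3 against 131, 72.4 and 81.8 CPM, 1.60 ± 0.37, adjusted p = 0.0128, and 0.053 without PG replicate 1), and because neural crest cells also express it, its source was not tested. Kit, the receptor gene of bud tip progenitors, was lower (147 to 230 against 54.0, 62.1 and 72.0 CPM, -1.56 ± 0.25, adjusted p = 0.000846).

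Of 19 tested keratins 2 were higher and 2 lower in PG epithelium, beside 7.07% and 4.66% of all tested genes. Krt14, a basal keratin, measured 57.9, 113, 102 and 124 CPM in SMG epithelium and 339, 1061 and 964 CPM in PG epithelium (2.99 ± 0.49, adjusted p = 0.00141). Its partner Krt5 measured 107 to 179 CPM in SMG and 307, 964 and 848 CPM in PG (2.39 ± 0.49, adjusted p = 0.00602). PG replicate 1 was the lowest PG library for both and still above every SMG library. Krt6a was lower (34.1 to 44.9 against 3.00, 8.67 and 9.88 CPM, -2.46 ± 0.61, adjusted p = 0.0166, and 0.0517 without PG replicate 1), as was Krt75 (-2.63 ± 0.52). Krt8, a keratin of simple epithelia, stood at 298 to 406 CPM in SMG and 134, 78.6 and 94.8 CPM in PG without overlap, and missed the threshold (-1.81 ± 0.61, adjusted p = 0.0798). Its standard error also takes in the spread of the mesenchyme libraries. Keratin paralogs are close in sequence, which makes their separate counts uncertain.

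Junction genes were counted by family, beside 7.07% of all tested genes called higher and 4.66% called lower. Among 22 tested genes of tight junctions 2 were higher (Cldn1 and Cldn9) and 5 lower (Cldn10, Cldn7, Cldn11 and F11r among them), with a median change of -0.63. The lower count was 3 without PG replicate 3, Cldn11 lost its call without any 1 of the 7 libraries, F11r without PG replicate 2 or 3 and Cldn9 without PG replicate 3. Cldn1 rose from 13.2 to 20.2 CPM in SMG to 63.3, 99.8 and 94.0 CPM in PG (2.35 ± 0.31, adjusted p = 0.000171). Cldn7 stood at 123 to 155 CPM in SMG and 23.8, 33.7 and 29.5 CPM in PG, without overlap (-2.27 ± 0.53, adjusted p = 0.0134, and 0.0529 without PG replicate 1), and was also not called without PG replicate 3. Of 20 cadherin and desmosome genes 3 were higher and 3 lower: Cdh13 was higher (0.347 to 0.535 against 11.1, 10.03 and 18.01 CPM, 4.87 ± 0.38, adjusted p = 1.5e-06), and Cdh6 (4.03 to 7.78 against 0.0833, 2.06 and 0.153 CPM, -2.97 ± 0.64) and the plakophilin gene Pkp2 (17.0 to 19.6 against 3.08, 6.30 and 3.70 CPM, -2.05 ± 0.31) were lower. The others were the desmogleins Dsg1a and Dsg3, called higher at less than 10 CPM, and Cdh4, lower by -0.93 ± 0.20. Cdh1 stood at 699 to 776 CPM in SMG and 348, 383 and 450 CPM in PG without overlap and was not called (-0.92 ± 0.73, adjusted p = 0.494). Its standard error comes from all 15 libraries and does not measure the spread of the epithelial libraries alone. Gjb2, a gap junction gene, was higher (32.4 to 103 against 248, 229 and 299 CPM, 2.19 ± 0.43).

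Of 30 tested basement membrane genes, 10 were higher in PG epithelium and 1 lower, with a median change of 0.31. The higher ones included Smoc1 (0.4998 to 1.15 against 11.99, 4.90 and 6.22 CPM, 3.30 ± 0.39), Frem1 (1.88 to 3.09 against 18.3, 27.4 and 12.7 CPM, 2.99 ± 0.38) and the epithelial collagen gene Col4a6 (26.7 to 36.5 against 140, 61.9 and 89.0 CPM, 1.66 ± 0.29). Lama2 and Nid2 were higher as well (2.49 ± 0.39 and 1.94 ± 0.33), and both are expressed more strongly in the mesenchyme of the same glands. Lama1, a laminin chain of early epithelia, was the lower member (56.6 to 79.2 against 37.8, 9.76 and 10.7 CPM, -1.83 ± 0.41, adjusted p = 0.00935). Of 20 integrin and fibronectin genes 6 were higher and 1 lower. The higher count was 3 without SMG replicate 2, SMG replicate 3 or PG replicate 3, and the lower call was lost without SMG replicate 1 or 2 or PG replicate 1 or 3. Itga2 (1.70 to 2.53 against 20.4, 13.2 and 16.9 CPM, 3.09 ± 0.24, adjusted p = 1.23e-06) and Itga8 (0.214 to 2.93 against 25.8, 10.1 and 11.3 CPM, 3.83 ± 0.59) were the integrin genes with the largest change. Of 29 proteases and inhibitors 6 were higher and 3 lower, and the inhibitor gene Timp3 had the largest change (7.997 to 16.7 against 97.6, 168 and 224 CPM, 3.85 ± 0.34, adjusted p = 8.93e-06). The proteoglycan gene Vcan was higher by 1.84 ± 0.14 (125 to 159 against 579, 438 and 466 CPM, adjusted p = 1.05e-06).

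Of 27 tested imprinted genes, which are expressed from 1 parental copy, 8 were lower in PG epithelium and 5 higher, with a median change of -0.13. Lower ones came in part from the Dlk1 domain of chromosome 12, where Dlk1 (241 to 309 against 24.5, 60.9 and 22.3 CPM, -2.88 ± 0.40, adjusted p = 0.000379), Meg3 (191 to 322 against 70.3, 79.4 and 60.5 CPM, -1.89 ± 0.28) and Rian (23.9 to 42.5 against 6.54, 8.90 and 3.85 CPM, -2.31 ± 0.25) were all called. In that domain the maternally expressed Meg3 and Rian and the paternally expressed Dlk1 thus had the same direction. Peg10 was lower (20.99 to 35.0 against 0.833, 3.58 and 1.72 CPM, -3.76 ± 0.39), whereas Sgce, named after its values were seen, whose start lies 99 bases away, was not called (34.4 to 45.7 against 41.4, 35.6 and 35.3 CPM, -0.13 ± 0.12). Igf2 and Igf2r, a growth factor gene and that of its clearance receptor, were both lower (-0.89 ± 0.19 and -0.96 ± 0.19). Magel2 was higher (0.259 to 1.79 against 8.37, 5.13 and 4.85 CPM, 2.65 ± 0.49).

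Cell cycle and metabolic genes showed small differences. Of 32 tested genes in each of the G1/S and G2/M lists 3 were lower in PG epithelium, beside 4.66% of all tested genes. The median change was -0.13 in both. Ccne2 (83.8 to 101 against 66.3, 50.5 and 53.1 CPM, -0.69 ± 0.11, adjusted p = 0.000426) and Kif23 (208 to 223 against 154, 134 and 127 CPM, -0.64 ± 0.08, adjusted p = 8.5e-05) had the largest changes. The others included Rrm2, Ccna2 and Ube2c, lower by -0.44 to -0.31. The G2/M count was 1 without SMG replicate 2 or 4 or PG replicate 1 or 3, and Ube2c was not called without PG replicate 3 (adjusted p = 0.198). Of 29 genes of glycolysis and hypoxia only Pfkp was called (1.497 ± 0.25), and 2 were higher without PG replicate 1. Of 24 cholesterol synthesis genes Fdps and Mvk were lower (-0.54 ± 0.17 and -0.41 ± 0.12), and both calls were lost without SMG replicate 1, 2 or 3 or PG replicate 2 or 3.

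Ligands for nerves, which innervate the bud early, were also counted. Of 32 tested genes of axon guidance and neurotrophic ligands, 11 were higher in PG epithelium and 5 lower. The higher count was 7 without SMG replicate 1 or 2, and the lower count 3 without PG replicate 1 or 3. Sema3e (1.36 to 2.40 against 8.33, 13.1 and 14.4 CPM, 2.69 ± 0.51) was among the higher ones. Sema5a (103 to 134 against 75.0, 63.5 and 48.0 CPM, -0.85 ± 0.14) was lower. The muscarinic receptor gene Chrm1, through which parasympathetic nerves act on the bud, was higher at a low level (0.556 to 0.806 against 12.6, 5.09 and 6.91 CPM, 3.65 ± 0.48, adjusted p = 0.000128).

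The same gland contrast was available in the mesenchyme, from other libraries. There 4678 genes were called (24.7%), 2892 higher in PG (15.3%) and 1786 lower (9.43%), and with at least a 2-fold change 1610 (8.5%) were higher and 719 (3.8%) lower. Of the 1339 genes higher in PG epithelium, 542 (40.5%) were also called higher in PG mesenchyme and 111 (8.29%) were called lower there. Of the 882 lower genes, 176 (20%) were also lower in PG mesenchyme and 178 (20.2%) were higher there. The interaction, which asks whether the gland difference differs between epithelium and mesenchyme, was called for 2705 genes (14.3%), among them 529 of the genes higher in PG epithelium and 474 of those lower. It was positive for 1130 genes (5.97%) and negative for 1575 (8.32%), and of at least 2-fold size for 762 (4.02%) and 972 (5.13%). In 699 of the 1339 higher genes (52.2%) the PG mesenchyme mean was at least as high as that of PG epithelium, and in 262 of the 882 lower genes (29.7%) the SMG mesenchyme was at least as high as SMG epithelium.

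**Figure D4:**
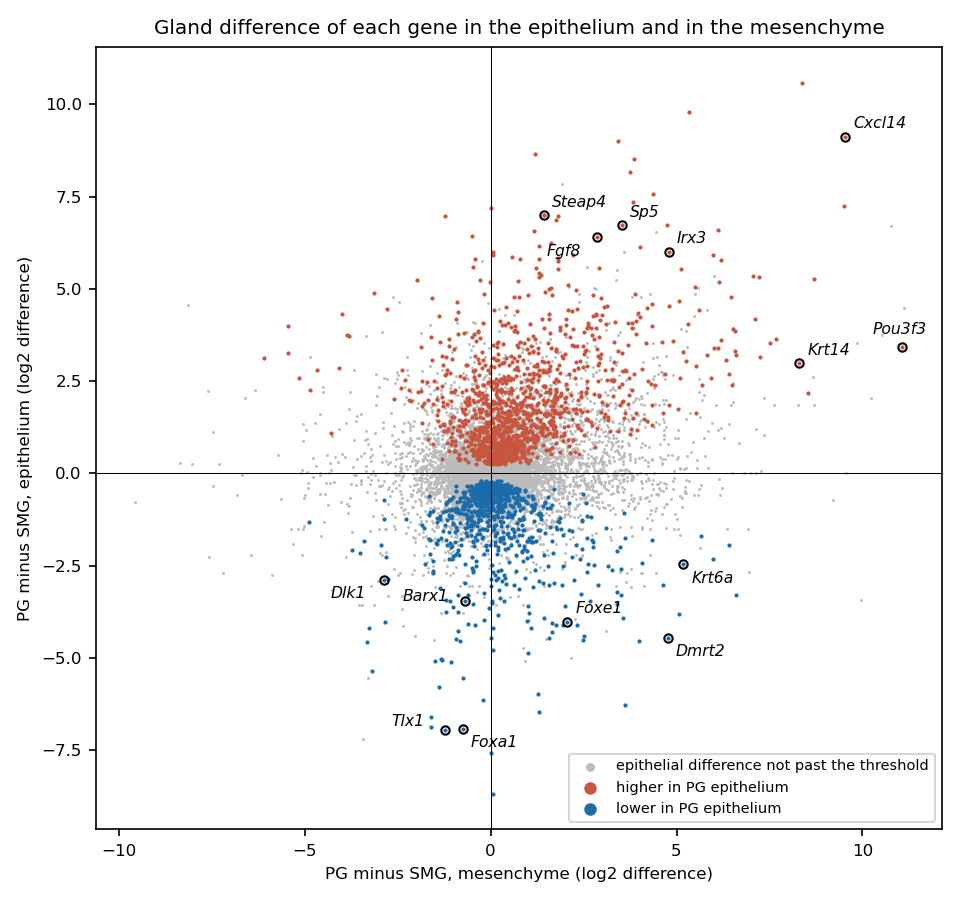
Log2 difference of PG minus SMG in mesenchyme on the x axis and in epithelium on the y axis, 1 point per tested gene, red for genes called higher in PG epithelium, blue for genes called lower and grey for the rest. Cxcl14 and Irx3 lie high on both axes, Foxa1 and Tlx1 lie low on the y axis and somewhat left of 0 on the x axis, and Dmrt2 lies low on the y axis and to the right.

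Several leading genes differed by gland in both layers. Tnfrsf19 stood at 9.89 ± 1.38 CPM in SMG mesenchyme and 138 ± 13.4 CPM in PG mesenchyme (SD, n = 4 each), a change of 3.80 beside 4.07 in the epithelium, and the interaction was not called (0.27 ± 0.35, adjusted p = 0.696). Irx3 changed by 4.79 and Irx5 by 6.14 in mesenchyme, also without a called interaction (adjusted p = 0.175 and 0.402). Slc2a3 in contrast changed by 0.64 in mesenchyme (27.7 ± 2.89 to 43.3 ± 13.8 CPM), and its interaction was called (3.36 ± 0.31, adjusted p = 8.6e-06). Foxa1 and Tlx1 were at or below 2.01 CPM on average in both mesenchymes, and their interactions were called (-6.17 ± 1.00 and -5.73 ± 0.59). Tlx1 was called lower in PG mesenchyme as well (-1.23, adjusted p = 0.0385). Dmrt2 went in opposite directions: it was lower in PG epithelium by -4.45 and higher in PG mesenchyme by 4.76 ± 0.46, at 0.230 to 0.670 CPM in SMG mesenchyme and 14.3, 11.6, 15.9 and 9.97 CPM in PG mesenchyme (interaction -9.21 ± 0.67, adjusted p = 1.07e-06). Summed epithelial identity genes held 82.9 to 111 CPM in SMG mesenchyme and 1315, 341, 289 and 396 CPM in PG mesenchyme, and the part of that difference in the mesenchymal changes was not tested.

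Markers of other cells moved with some of the calls, and their counts depended on single libraries. Of 36 mesenchymal identity genes 12 were called higher in PG epithelium and 1 lower (median 1.35), but 5 higher and 3 lower without PG replicate 2, 7 higher without SMG replicate 2 and 6 without SMG replicate 4. Of 24 skeletal muscle markers 6 were higher (1 without PG replicate 2, and 2 or 3 without any one SMG library). Of 20 neuron and Schwann markers 4 were higher, Fabp7, Tubb3, Elavl4 and Sox10 (1 without PG replicate 2, 2 without SMG replicate 4, 7 without PG replicate 1 and 9 without PG replicate 3). Of 20 macrophage markers Aif1 and Cd68 were higher, and both calls were lost without PG replicate 2, while 5 were higher without PG replicate 3 and 1 without SMG replicate 1 or 2. Of 19 endothelial markers 5 were higher, Fli1, Pecam1, Ramp2, Eng and Esam (4 without replicate 2, and 11 without replicate 1 or without replicate 3). Summed muscle markers were 12.8 to 16.6 CPM in SMG epithelium and 29.8, 62.2 and 20.3 CPM in PG epithelium, and summed endothelial markers were 16.2 to 21.6 CPM and 29.9, 76.2 and 21.3 CPM. As a percent of the same gland's mesenchyme mean, muscle markers were 7.46 to 9.71% in SMG epithelium and 1.31, 2.74 and 0.893% in PG. The muscle percentages have unlike bases, because these markers summed to 82.6 to 347 CPM in SMG mesenchyme and 1533 to 3137 CPM in PG mesenchyme. Endothelial markers were at 1.73 to 2.32% in SMG epithelium and at 4.14, 10.6 and 2.94% in PG epithelium. Defining markers were near 0 in most libraries: Fabp7, a glial gene, stood at 0.107 to 0.476 CPM in SMG and 1.29, 54.9 and 0.382 CPM in PG, and Tubb3, a neuronal tubulin gene, at 0.480 to 0.799 CPM and 0.791, 38.5 and 0.763 CPM. Their calls (6.01 ± 1.34 and 4.44 ± 1.11) were lost without replicate 2, with adjusted p-values of 0.122 and 0.562.

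**Figure D5:**
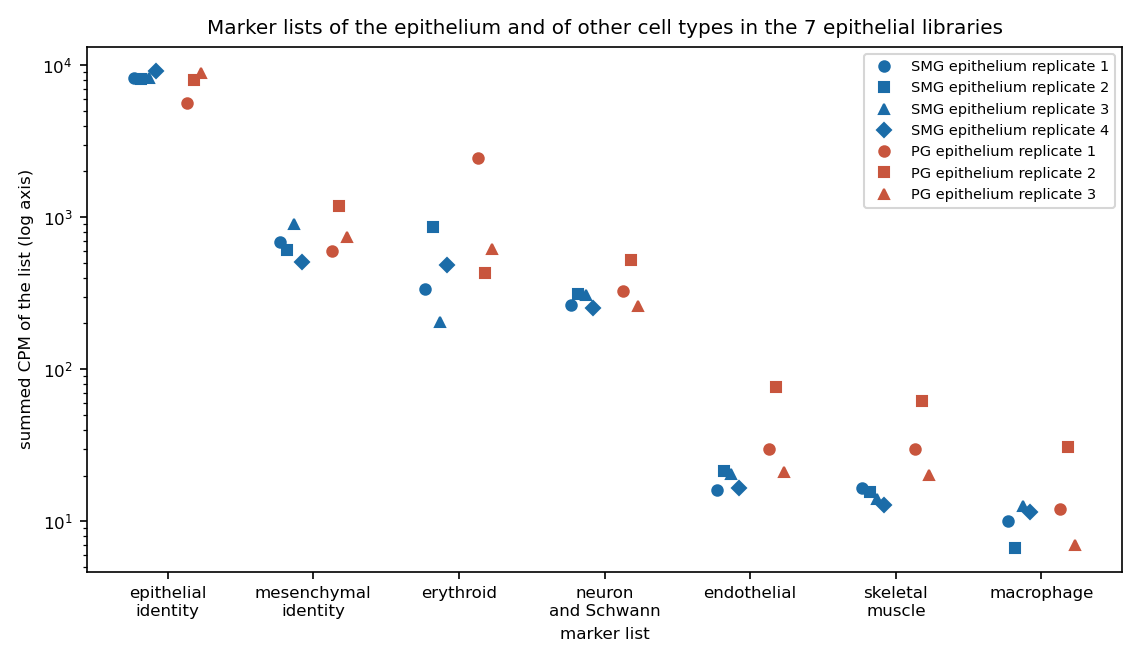
Summed CPM of marker lists for other cell types in each epithelial library on a log axis, with 1 point per library. PG epithelium replicate 2 held the highest sum for mesenchymal (1192 CPM), endothelial (76.2 CPM) and muscle (62.2 CPM) markers, and PG epithelium replicate 1 for erythroid markers (2466 CPM).

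Calls on the leading factors did not rest on that library. Irx3, Irx4, Irx5, Otx1, Lmx1b, Tnfrsf19, Slc2a3, Sp5, Fgf8, Wnt3, Wnt9b, Nog, Foxa1, Foxe1, Tlx1, Isl2 and Dmrt2 stayed called with any 1 of the 7 epithelial libraries left out. Of 259 named genes called with all libraries, 70 were not called without PG replicate 2, and 40 to 59 without any other single epithelial library. Of all 2221 calls, 72.4% remained without PG replicate 2, and 70.6 to 83.2% without any other. Ntrk2, Msx1, Zeb2, Meox2, Esam, Col1a2 and Vim were among those not called without PG replicate 2. Ntrk2, a neurotrophin receptor gene, stood at 0.892 to 3.92 CPM in SMG epithelium and 1.37, 59.6 and 20.8 CPM in PG epithelium, so its groups overlapped (3.71 ± 0.90, adjusted p = 0.0173, and 0.103 without replicate 2). Embryo sex varied between libraries as well: the Y-linked Ddx3y was at 0 in SMG replicate 4 and PG replicate 3 and at 43.2 to 137 CPM in the other 5 epithelial libraries, and Xist was at 23.4 to 133 CPM in the SMG libraries and 0.458, 0.583 and 110 CPM in the PG libraries. The part of sex in the calls was not tested. The mesenchymal identity sum was higher in SMG replicate 3 (899 CPM) than in PG replicates 1 and 3 (599 and 736 CPM), and leaving out PG replicate 2 together with SMG replicate 3 left 1070 genes higher and 688 lower.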

How the data were processed

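The values used here are whole-number read counts per Ensembl gene, which the authors deposited for 15 bulk RNA libraries. STAR 2.5.2a, limma, edgeR and DESeq2 appear in the submitters' processing notes, as do the builds mm10 and GRCm38.p3. Which program counted the reads, with what strand setting and which annotation release, is not given in the sources used here. Per the labels' protocols RNA was isolated with TRIzol, a SMART-Seq v4 kit, which does not mark the strand, produced the cDNA, and Nextera XT the libraries. Libraries were grouped by title.

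The table held 48709 genes and 92 spike-in controls, which entered neither library sizes nor tests. filterByExpr by group left 18940 genes. Counts were fitted with edgeR 4.0.16 in R 4.3.3 (TMM factors, robust quasi-likelihood fit, 1 mean per group, all 15 libraries), with a biological coefficient of variation of 0.227. Tests were two-sided quasi-likelihood F-tests of PG against SMG in epithelium, in mesenchyme and of their interaction, with Benjamini-Hochberg adjustment over all tested genes and a threshold of 0.05. The script was tested on simulated data. For a gene without counts in a group a floor of 3 counts over the group gives a bound, and for 1 to 3 counts the CPM ratio has an exact 95% Poisson interval. Both reflect only counting error, because copies made by PCR carry no mark. Symbols were found for 48349 identifiers. Coordinates are 1-based from GENCODE M21 (GRCm38), and promoter sequences are from RefSeq (GRCm38.p6), matched by symbol for 12468 of the tested genes.

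The comparison, the 45 gene lists and the rules were chosen with earlier results of these data known. Named genes are the 12 with the largest change per direction among called genes with a mean of at least 20 CPM in the higher epithelium, no overlap between groups and less RNA in the mesenchyme of that gland. The rule adds 4 per direction with more RNA in that mesenchyme, the 4 most counted with at least a 2-fold change, the 4 with the largest interaction, and up to 4 called and 2 uncalled members of each list. Other names, including those that complete a short count of called members, were chosen after their values were seen. Some members of the lists are counted but not reported here by name. Alternatives were other scaling factors, DESeq2 1.42.0, limma-voom (limma 3.58.1), other filters, only the epithelial libraries, a replicate block and each epithelial library left out in turn.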

Additional observations from a re-analysis of the deposited data

Results flagged for a closer look

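Of the 2705 genes with an interaction called by edgeR's test, 8 are listed here. They had the largest interactions, 4 among genes called higher in PG epithelium and 4 among genes called lower. Only genes with a mean of at least 20 CPM in the higher epithelium were considered. On the log2 scale, with the epithelial difference less the mesenchymal one, the values were 5.58 for Steap4, 5.31 for Ntrk2, -5.30 for Krt14, -6.35 for Gjb2, -7.36 for Scel, -7.64 for Krt6a, -7.67 for Sptssb and -9.21 for Dmrt2. Krt14, Gjb2, Scel, Krt6a and Sptssb are genes of stratified or barrier epithelia, and their mesenchymal values were low in SMG. Krt14 stood at 0 to 0.384 CPM in SMG mesenchyme and at 78.1, 38.6, 19.5 and 61.9 CPM in PG mesenchyme, and Gjb2 at 0 to 0.269 CPM and at 54.5, 25.6, 17.8 and 46.1 CPM. The summed epithelial identity genes were also higher in PG mesenchyme (289 to 1315 CPM) than in SMG mesenchyme (82.9 to 111 CPM), and the part of this in the interactions was not tested. Steap4 was not called in the mesenchyme (1.42 ± 1.01, adjusted p = 0.355), and Ntrk2 was not called in the epithelium without PG epithelium replicate 2 (2.43, adjusted p = 0.103), and also not without SMG epithelium replicate 1 or 2.

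A single library stood apart from its group in 2 of 51 values examined. C130021I20Rik was at 0.0347 CPM, a single read, in SMG epithelium replicate 2 and at 0 in the other 3 SMG epithelial libraries. Summed over epithelial identity genes, SMG epithelium replicate 4 held 9156 CPM and the other 3 held 8104 to 8167 CPM. For normally distributed values, chance alone places about 1 in 20 groups of 4 beyond this limit. A group with a single read and 0 in the other 3 libraries always passes it, so the flag on C130021I20Rik carries no information beyond that read.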

How the results depend on the processing

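The counts of 1339 genes higher and 882 lower in PG epithelium, 875 and 384 with at least a 2-fold change, and 2705 with an interaction stayed within 1.5 times under other scaling factors, DESeq2, limma-voom, 2 other filters, and a fit of the epithelial libraries alone, which gives no interaction. No called gene changed sign in any alternative, and 46.9 to 98.9% of the 2221 calls remained. Leaving out each epithelial library in turn gave 1049 to 1445 genes higher, 572 to 788 lower, 703 to 1002 and 286 to 425 with at least a 2-fold change, and 2274 to 2602 interactions. A replicate block gave 1158 higher, 803 lower and 2489 interactions with all 15 libraries. With only the 7 epithelial libraries the block gave 685 higher, 516 lower and 476 at least 2-fold higher, against 1170, 910 and 704 in the same libraries without it. The labels do not say that a number pairs libraries. Deviations of same-numbered PG and SMG epithelial libraries correlated at -0.095 to 0.092 over 3 pairs and those of differently numbered ones at -0.081 to 0.133 over 9. Between SMG epithelium and SMG mesenchyme, same-numbered libraries correlated at 0.014, 0.142, 0.193 and 0.283 and differently numbered ones at -0.175 to 0.029, while same-numbered PG epithelium and PG mesenchyme correlated at 0.072, -0.003 and -0.124. Recounting each gene list under these alternatives was chosen after seeing the data. With 3 and 4 libraries, a gene that missed the threshold may still differ.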

Other observations

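Several genes had differences not described so far. Gabrp, which encodes a GABA receptor subunit found in several epithelia, stood at 10.1 to 19.8 CPM in SMG epithelium and 144, 128 and 237 CPM in PG epithelium (3.52 ± 0.52, adjusted p = 0.000669). Arhgap29, a GTPase regulator gene linked to lip and palate development, was lower in PG (236 to 315 against 118, 151 and 159 CPM, -1.003 ± 0.12, adjusted p = 4.7e-05). Sox21 of the SOX factors was lower (12.8 to 18.7 against 4.75, 4.28 and 4.58 CPM, -1.84 ± 0.43, adjusted p = 0.00972), though not without PG replicate 2 and SMG replicate 3 together, and Foxo1 was lower as well (-0.93 ± 0.13, adjusted p = 0.000169). Ccn2, a matrix-associated gene that responds to Hippo and TGF-beta signals, stood at 9.16 to 31.6 CPM in SMG and 4.79, 6.57 and 4.16 CPM in PG (-1.96 ± 0.37, adjusted p = 0.00247). Asns, the gene for asparagine synthetase, was higher in PG (36.1 to 46.7 against 96.6, 72.6 and 81.4 CPM, 1.03 ± 0.13, adjusted p = 9.35e-05).

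The immediate early genes Egr1 and Fos spread widely among the replicates of a group. Egr1 ranged from 40.8 to 1023 CPM over the SMG epithelial libraries and from 667 to 1362 CPM over the PG ones, and neither gene was called (0.98 ± 1.03 for Egr1, 0.98 ± 0.98 for Fos). Jarid2, one of the most counted genes with at least a 2-fold lower level in PG, stood at 329 to 382 CPM in SMG and 174, 166 and 175 CPM in PG (-1.04 ± 0.11, adjusted p = 2.13e-05).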
